A study of Mus musculus with 15 samples.

Results

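The lipid droplet genes described here are the perilipins Plin1, Plin2, Plin3, Plin4 and Plin5, together with Cidec, Bscl2, Fitm2 and G0s2. They were chosen by name, as a list of droplet proteins and with earlier results of these data known, and make up 9 of the 46603 gene identifiers counted. They were measured by RNA-Seq in mouse embryonic fibroblasts (MEFs), fibroblasts grown from whole embryos, during conversion to adipocytes in culture. By their labels, all 5 conditions used wild-type BALB/c MEFs from 10.5 day old embryos, with 3 samples per condition. The paper's introduction describes MEFs with another strain and embryo age, and its methods give neither for the cells used. MEFD0 was harvested at day 0 before any treatment. MEFD3min and MEFD5min were untreated cells kept in DMEM with fetal bovine serum to day 3 and day 5. MEFD3plu had spent 3 days in medium with 0.5 mM IBMX, which raises cAMP, 10 µg/mL insulin, the glucocorticoid dexamethasone at 1 µM and the Pparg agonist rosiglitazone at 10 µM. MEFD5plu had the same 3 days and then 2 days in growth medium without these agents. The samples of each condition carry the numbers 1, 3 and 4, and nothing in the labels says that they came from separate cultures or embryos, so p-values measure the spread between these samples, which may be technical.

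Cells store triglyceride in lipid droplets, which form at the endoplasmic reticulum and carry a coat of proteins on their surface. Perilipins make up much of that coat and control how lipases reach the stored fat, with Plin1 best known from adipocytes, Plin2 and Plin3 from most tissues, Plin4 from adipocytes and muscle, and Plin5 from tissues that burn fat. Cidec (also called Fsp27) joins droplets into larger ones, seipin (the product of Bscl2) and Fitm2 act where droplets form, and G0s2 inhibits Pnpla2 (ATGL), the lipase that starts the breakdown of triglyceride.

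Levels are given as raw counts or as CPM, the count divided by the library total in units of 1e6 reads, scaled by edgeR's TMM factors. Total counts per sample lay between 24030558 and 37281126 (median 33878281). Of the 46603 identifiers 15997 passed the filter on low counts, and all 9 members were among them, Plin1, Plin5, Cidec and G0s2 through the treated samples in which they were high. Log2 fold changes and adjusted p-values come from the quasi-likelihood F test of edgeR, with p-values adjusted by the method of Benjamini and Hochberg over all 15997 genes, and a gene was called at an adjusted p under 0.05. SE is the size of the log2 fold change divided by the square root of the F of that test, and was not estimated separately. It can understate the error where untreated cells held few counts, as for Plin4, Cidec and G0s2. Most of these comparisons share samples with each other. RNA was taken from whole cultures, in which fewer cells of a type and less RNA per cell cannot be told apart.

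Adipocyte markers moved together with most of the members. The 10 markers summed to 29.0 to 46.5 CPM in MEFD3min and MEFD5min, to 6791 to 8508 CPM in MEFD3plu and to 8680 to 10380 CPM in MEFD5plu. Most of these sums was Fabp4 and Lpl, at means of 3059 and 3931 CPM in MEFD3plu and 4522 and 3925 in MEFD5plu. Lep was at 0 or within 3 counts in each of these 4 conditions, and the other 9 markers were called higher at both days. Fibroblast markers were abundant in all 4, between 10792 and 33411 CPM in sum, and 7 of 8 were called lower in treated cells at day 3, while at day 5 there were 3 higher, 3 lower and 2 not called. The 7 macrophage markers summed to 7.46 to 20.5 CPM, with Adgre1 at 0 in these conditions. The 5 preadipocyte markers summed to 80.3 to 96.8 CPM in MEFD5min and to 319 to 329 CPM in MEFD5plu. Most of that rise was Ly6a, at 16.4 CPM in MEFD5min and 250 in MEFD5plu. Of these 5 markers 2 were called higher and 3 lower at day 3, and 2 higher, 1 lower and 2 not called at day 5. Of all genes tested, 56.1% were called at day 3 and 50.5% at day 5. MEFD3min replicate 3 stood apart among the untreated samples, with 43 counts over the 8 adipocyte markers other than Fabp4 and Lpl, where the other untreated samples held 0 to 3. The part of these cells in the levels of the members was not tested, and results of the members that rest on MEFD3min replicate 3 are given with and without it.

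The sequences before 5 of the genes are shown because their transcripts behaved in different ways. Cidec and Plin1 went from almost no reads to high levels, Plin4 was also read at day 0, Plin2 was abundant throughout and rose, and Plin3 did not rise. RefSeq (GRCm38.p6) gives a window of 250 bases before each start of transcription, with 2 starts for Cidec. Bases that GENCODE M21 places in an exon were left out, and each sequence is printed 5′ to 3′ on the strand of the gene, with matches to the motifs described next in capitals:
Cidec (chr6:113435761-113436010, - strand): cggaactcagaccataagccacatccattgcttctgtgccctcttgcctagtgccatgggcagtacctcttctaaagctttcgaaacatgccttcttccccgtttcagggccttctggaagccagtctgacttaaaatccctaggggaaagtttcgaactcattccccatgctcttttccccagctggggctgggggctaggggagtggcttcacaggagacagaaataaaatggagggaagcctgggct
Cidec (chr6:113434765-113435014, - strand): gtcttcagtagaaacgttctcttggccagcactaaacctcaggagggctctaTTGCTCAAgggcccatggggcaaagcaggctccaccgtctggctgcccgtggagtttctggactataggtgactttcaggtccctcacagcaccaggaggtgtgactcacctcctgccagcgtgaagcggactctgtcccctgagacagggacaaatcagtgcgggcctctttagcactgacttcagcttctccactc
Plin1 (chr7:79732904-79733026, - strand): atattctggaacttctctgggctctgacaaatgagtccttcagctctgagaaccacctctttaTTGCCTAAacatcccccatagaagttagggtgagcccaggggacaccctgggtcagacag
Plin4 (chr17:56109804-56110032, - strand): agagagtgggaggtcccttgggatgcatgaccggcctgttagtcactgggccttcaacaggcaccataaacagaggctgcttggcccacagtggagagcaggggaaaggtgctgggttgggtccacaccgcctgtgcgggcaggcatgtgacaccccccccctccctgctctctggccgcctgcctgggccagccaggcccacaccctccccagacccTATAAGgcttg
Plin2 (chr4:86670061-86670309, - strand): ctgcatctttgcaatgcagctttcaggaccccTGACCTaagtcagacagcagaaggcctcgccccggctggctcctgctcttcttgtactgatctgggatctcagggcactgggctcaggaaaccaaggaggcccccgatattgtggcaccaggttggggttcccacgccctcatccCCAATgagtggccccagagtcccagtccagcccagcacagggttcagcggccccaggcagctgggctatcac
Plin3 (chr17:56290512-56290761, - strand): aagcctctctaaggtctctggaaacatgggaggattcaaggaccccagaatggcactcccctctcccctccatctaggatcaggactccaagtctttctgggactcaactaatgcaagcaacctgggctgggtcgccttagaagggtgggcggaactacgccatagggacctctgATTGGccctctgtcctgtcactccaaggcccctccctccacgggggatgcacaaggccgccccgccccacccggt
The motifs were chosen after the values had been seen, were searched on both strands and describe letters, not sites of binding. TTGCNNAA, a form of the C/EBP motif, began at -198 from the second Cidec start and at -187 and -58 from the Plin1 start, the latter within an annotated exon and not printed. It occurred in 2 of the 13 windows of the members, and in 9.56% of the 32851 windows of all genes. TATAAG began at -32 from the Plin4 start and at -27 from a Plin5 start, against 6.65% of all windows. The nuclear receptor half-site AGGTCA was found before Plin2 (read there as TGACCT), before 1 start of Plin5 and before 1 of Bscl2, against 14.0% of all windows, and the PPAR/RXR repeat, AGGTCA followed by any 1 base and AGGTCA again, was found in 0 of the 13 (0.0335% of all). A glucocorticoid receptor motif, GNACA and TGTNC with any 3 bases between, was found in 0 of the 13 (0.387% of all), as was TATAAA (12.4% of all). CCAAT occurred in 5 of the 13, among them Plin2 and Plin3 (there as ATTGG), against 33.8% of all.

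Treated cells held more transcripts than untreated cells for 7 of the 9 genes at day 3 and for 8 at day 5. At day 3 Plin1, Plin2, Plin4, Plin5, Cidec, Fitm2 and G0s2 were higher in MEFD3plu than in MEFD3min, Plin3 was lower and Bscl2 was not called. Of all genes tested, 56.1% were called in this comparison, 28.0% higher and 28.0% lower. At day 5 the same 7 genes and Bscl2 were higher in MEFD5plu than in MEFD5min, and Plin3 was not called, where 50.5% of all genes were called, 26.3% higher and 24.2% lower. The 3 treated and 3 untreated samples stood clear of each other for 8 members at day 3 (56.8% of all genes) and for 9 at day 5 (62.1% of all genes). The median log2 fold change of the members was 7.19 at day 3 and 9.15 at day 5, or 5.14 and 5.52 with genes near 0 in untreated cells set to their fold over a floor of 3 counts per library, beside medians of -0.00057 and 0.010 over all genes. Plin1, Plin5, Cidec and G0s2 passed the filter through their treated samples, so being high there was a condition for testing them. Their calls and their part in these medians are therefore not independent of the filter. The counts of 8 called members at each day were the same in every fit with 1 sample left out.

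**Figure D1:**
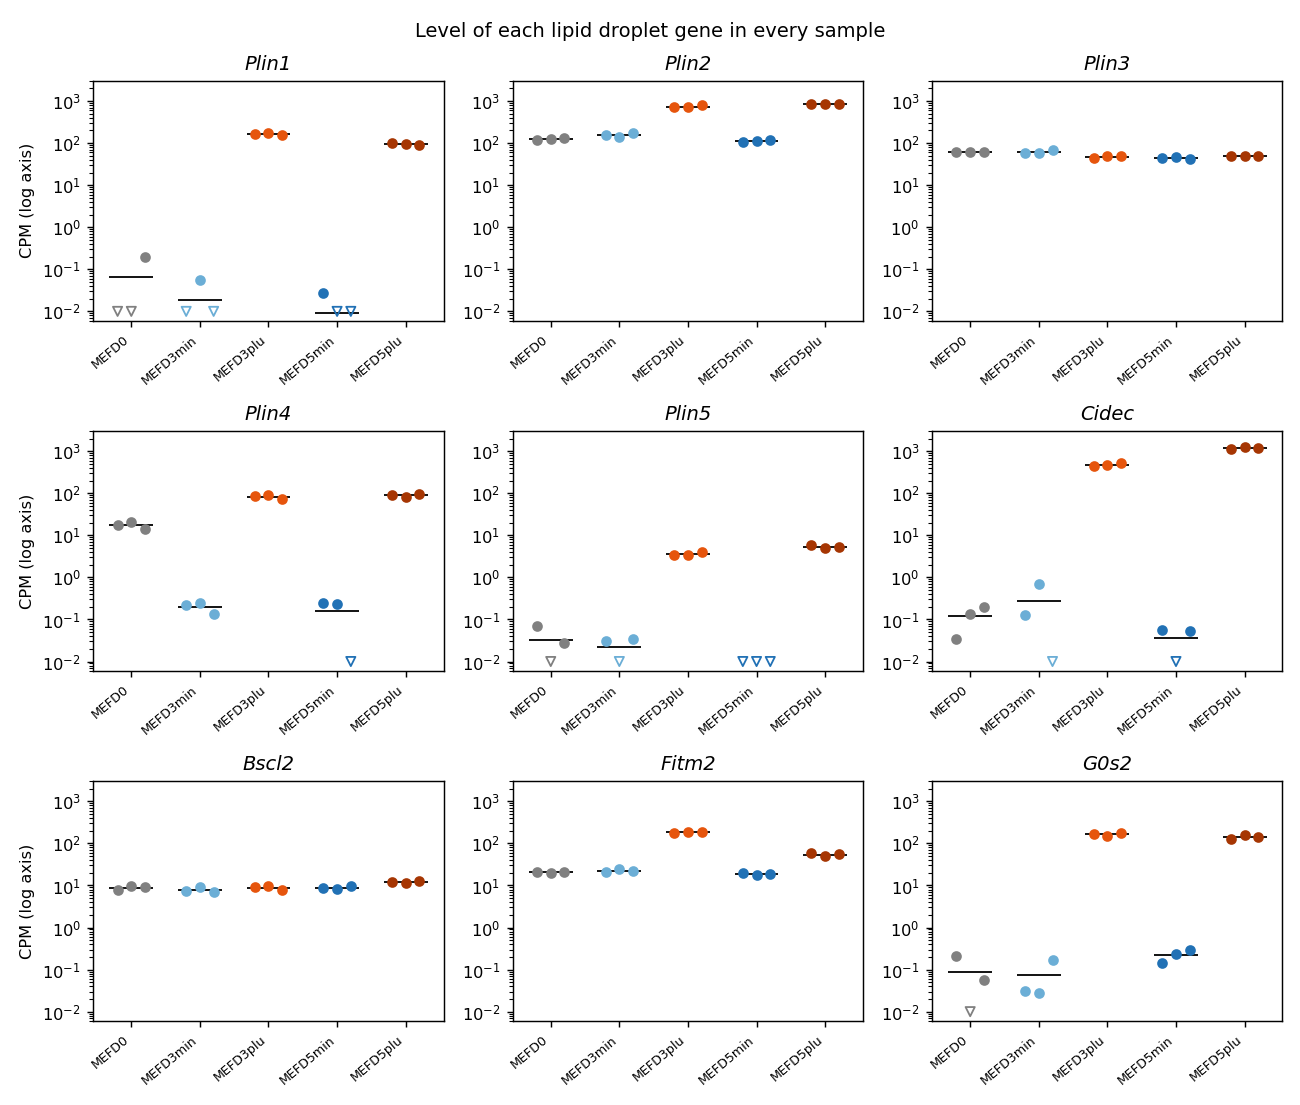
Level of each of the 9 genes in every sample, in CPM on a log axis, with 1 panel per gene, 3 points per condition and a line at the mean. Open triangles at the bottom mark samples with 0 counts. Plin1, Plin5, Cidec and G0s2 have few or no counts in MEFD0, MEFD3min and MEFD5min, Plin4 is also seen in MEFD0 (17.5 CPM), and Plin3 and Bscl2 lie within a narrow band in all 5 conditions.

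Plin1 (ENSMUSG00000030546, chromosome 7, 79720218 to 79732903, GRCm38) codes for the perilipin that guards the large droplet of fat cells. It had 0, 0 and 7 counts in MEFD0, 0, 2 and 0 in MEFD3min and 1, 0 and 0 in MEFD5min. It reached 169.5, 176.9 and 158.4 CPM in MEFD3plu and 98.9, 94.7 and 88.9 CPM in MEFD5plu. All treated samples therefore lay far above all untreated ones, and the day 3 samples lay above the day 5 samples. With 2 counts in all of MEFD3min, the ratio of treated to untreated was 8166 at day 3, with an exact 95% counting interval of 2260 to 67440. Both counts came from MEFD3min replicate 3. Without that sample MEFD3min held 0 counts, and the fitted log2 fold change at day 3 went from 12.75 to 15.42, a value that depends on the prior count. With 1 count in all of MEFD5min the ratio at day 5 was 9275 (1664 to 366400). These intervals cover counting error only. Both comparisons were called (adjusted p = 1.43e-14 and 4.35e-14, edgeR's quasi-likelihood test). From day 3 to day 5 in treated cells Plin1 fell by 0.84 on the log2 scale (SE 0.148, adjusted p = 1.09e-04).

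Plin2 (ENSMUSG00000028494, chromosome 4, 86648386 to 86670060), the coat protein that most cells put on their droplets, was already abundant without treatment. It stood at 116.3, 127.0 and 132.5 CPM in MEFD0, at 152.7, 141.8 and 170.9 in MEFD3min and at 103.9, 111.5 and 115.8 in MEFD5min. It stood at 714.9, 714.3 and 786.8 CPM in MEFD3plu and at 853.4, 875.1 and 862.1 in MEFD5plu. No treated sample overlapped an untreated one. The change was 2.25 (SE 0.088, 4.76-fold, adjusted p = 1.30e-12) at day 3 and 2.97 (SE 0.091, 7.82-fold, adjusted p = 8.72e-14) at day 5, in log2 units. The effect at day 3 was smaller than that at day 5 by 0.72 (SE 0.120, adjusted p = 1.10e-04 for the interaction of treatment and day). Untreated cells took part in this difference, as Plin2 was 0.31 higher in MEFD3min than in MEFD0 (adjusted p = 0.0047) and fell by 0.49 from MEFD3min to MEFD5min (adjusted p = 1.72e-04). The rise from MEFD3plu to MEFD5plu was 0.23 (adjusted p = 0.0274) and lost its call with DESeq2 (adjusted p = 0.0558), with either other library scaling, with no filter, and with any of 5 samples left out (adjusted p up to 0.0944).

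Plin3 (ENSMUSG00000024197, chromosome 17, 56277476 to 56292873), a perilipin that also moves freely in the cytosol, was the exception in the family. It stood at 61.2, 62.9 and 62.3 CPM in MEFD0, at 58.3, 58.1 and 67.1 in MEFD3min and at 43.3, 47.1 and 42.8 in MEFD5min. In treated cells it stood at 44.9, 49.5 and 49.6 CPM at day 3 and at 48.3, 49.6 and 48.6 at day 5. The samples of MEFD0 and MEFD3min were thus the high ones, and the 3 other conditions lay below them without overlap. Plin3 fell by 0.35 on the log2 scale with treatment at day 3 (SE 0.076, adjusted p = 8.97e-04), and at day 5 it differed by 0.14 (SE 0.077, adjusted p = 0.143), a difference that turned to -0.03 when libraries were scaled by total counts alone. The difference between both effects was -0.49 (SE 0.108, adjusted p = 0.0013). In untreated cells Plin3 fell by 0.46 from day 3 to day 5 (adjusted p = 1.09e-04), while MEFD5plu and MEFD3plu differed by 0.02 (SE 0.076, adjusted p = 0.800).

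Plin4 (ENSMUSG00000002831, chromosome 17, 56100591 to 56109803) codes for a long perilipin that coats small droplets, and it was the 1 member that changed strongly without treatment. MEFD0 held 524, 770 and 501 counts, MEFD3min held 7, 9 and 4, and MEFD5min held 9, 6 and 0. As levels, MEFD0 stood at 18.0, 20.4 and 14.0 CPM, and all 6 later untreated samples were at or below 0.253 CPM. Plin4 fell by 6.38 on the log2 scale from MEFD0 to MEFD3min (SE 0.292, adjusted p = 8.11e-12) and by 6.80 from MEFD0 to MEFD5min (SE 0.306, adjusted p = 2.20e-11), without overlap. Treated cells stood at 84.7, 88.9 and 73.8 CPM at day 3 and at 90.4, 82.2 and 94.2 at day 5, above every MEFD0 sample. Mean CPM were 408-fold higher than in MEFD3min at day 3 and 550-fold higher than in MEFD5min at day 5, where the untreated side rests on 20 and 15 counts in all (log2 fold changes 8.62, SE 0.279, adjusted p = 1.21e-13, and 9.15, SE 0.290, adjusted p = 1.52e-13). Against MEFD0 the rise was 4.73-fold at day 3 and 5.10-fold at day 5 (adjusted p = 2.80e-09 and 2.28e-09). The levels of MEFD3plu and MEFD5plu differed by 0.11 (SE 0.157, adjusted p = 0.564). Of the longest Plin4 transcript, 8.66% of 100-base stretches occur more than once within it, and no stretch was shared with another gene.

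Plin5 (ENSMUSG00000011305, chromosome 17, 56111601 to 56117596), the perilipin that ties droplets to mitochondria, had the lowest CPM of the members in treated cells. Per kilobase of exon Bscl2 was lower, at 1.51 CPM in MEFD3plu and 2.06 in MEFD5plu, beside 1.71 and 2.58 for Plin5. Plin5 had 2, 0 and 1 counts in MEFD0, 1, 0 and 1 in MEFD3min and 0 in all 3 samples of MEFD5min. Treated samples held 99, 108 and 139 counts at day 3 and 195, 152 and 180 at day 5, or 3.56 ± 0.311 and 5.38 ± 0.457 CPM (SD, n = 3). Treated and untreated samples were far apart at both days, at low levels throughout. The ratio was 174 at day 3 (exact 95% counting interval 47.8 to 1443) and at least 46.0-fold at day 5, taking 3 counts per library as the floor (adjusted p = 3.67e-09 and 1.76e-09). The rise of 0.59 from MEFD3plu to MEFD5plu (SE 0.234, adjusted p = 0.0380) kept its size but lost its call with both other library scalings and with no filter (0.52 to 0.57), and with any of 7 samples left out (0.54 to 0.67, adjusted p 0.0508 to 0.123).

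Plin3, Plin4 and Plin5 lie within 1 stretch of chromosome 17 on the same strand, and they shared only part of their pattern. Plin4 (408-fold and 550-fold) and Plin5 (174-fold and at least 46.0-fold) were called higher in treated cells at both days. Plin3 was not called higher at either day. Plin4 was lost in untreated culture, while Plin5 had few or no counts in all untreated samples and low levels in treated ones.

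Within the family Plin2 held the largest share of transcripts in all 5 conditions. Each gene's CPM was divided by the length of its annotated exons in kilobases, and shares are of the sum over the 5 perilipins. In MEFD0 the shares were 64.7% ± 1.73 for Plin2, 29.8% ± 0.910 for Plin3 and 5.49% ± 1.07 for Plin4 (SD, n = 3). In MEFD3min and MEFD5min Plin2 held 73.2% ± 0.713 and 72.8% ± 1.48, Plin3 held 26.8% ± 0.705 and 27.2% ± 1.42, and the other 3 together were under 1%. In MEFD3plu Plin2 held 76.4% ± 1.78, Plin1 13.2% ± 1.11, Plin4 5.20% ± 0.643, Plin3 4.61% ± 0.196 and Plin5 0.619% ± 0.033. In MEFD5plu Plin2 held 82.8% ± 0.515, Plin1 6.82% ± 0.376, Plin4 5.19% ± 0.386, Plin3 4.34% ± 0.034 and Plin5 0.868% ± 0.079. The second largest share was thus that of Plin3 in untreated conditions and that of Plin1 in treated ones. Plin3 itself was not lower at day 5, at a mean of 48.8 CPM in MEFD5plu and 44.4 in MEFD5min. The summed level rose from 60.4 ± 5.46 CPM per kilobase in MEFD3min to 275 ± 9.40 in MEFD3plu, and from 43.2 ± 1.84 in MEFD5min to 297 ± 1.98 in MEFD5plu. Plin2 kept the largest share with the longest transcript as length and with no length correction, but the smaller shares depend on the length used. With the longest transcript Plin3 held 19.7% in MEFD0, 17.0% in MEFD3min, 17.2% in MEFD5min, 2.74% in MEFD3plu and 2.56% in MEFD5plu. Plin4 in MEFD3plu held 2.99% with the longest transcript and 7.94% without a length, and Plin5 there held 0.373% and 0.342%. In MEFD5plu without a length, Plin1 held 8.55% and Plin4 8.08%, so second place there was close.

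**Figure D2:**
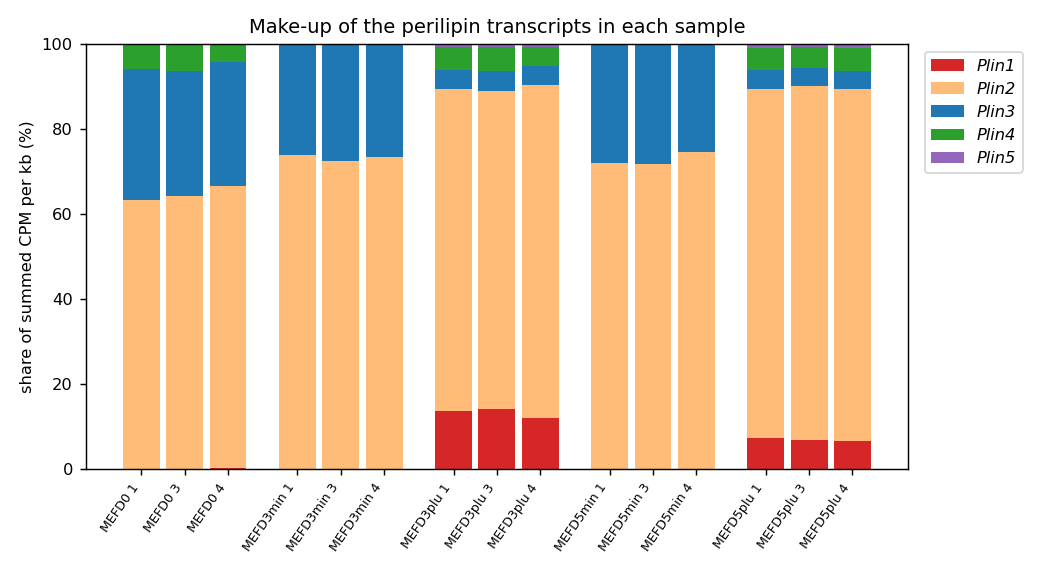
Share of each perilipin in the summed CPM per kilobase of Plin1 to Plin5, as 1 stacked bar per sample, with samples named by condition and replicate number. Plin3 (blue) takes 26.8% to 29.8% of the pool on average in untreated conditions and under 5% on average in treated ones, where Plin1 (red) appears.

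Cidec (ENSMUSG00000030278, chromosome 6, 113424634 to 113435760), which makes droplets fuse, reached the highest level of the members. It had 1, 5 and 7 counts in MEFD0, 4, 25 and 0 in MEFD3min and 2, 0 and 2 in MEFD5min. It rose to 448.2, 468.8 and 523.0 CPM in MEFD3plu and to 1112, 1254 and 1211 CPM in MEFD5plu. Treated samples were far above untreated ones, and every day 5 sample was above every day 3 sample. The day 3 change was 10.64 on the log2 scale (SE 0.349, adjusted p = 1.34e-13), and 12.77 without MEFD3min replicate 3, which held 25 of the 29 counts of its condition. At day 5 the ratio was 29320 (exact 95% counting interval 11450 to 107600, adjusted p = 4.62e-14). In treated cells Cidec rose 2.48-fold from day 3 to day 5 (log2 1.31, SE 0.201, adjusted p = 2.67e-05), with 1.27 and an adjusted p of 0.178 from DESeq2. The effect at day 3 was below that at day 5 by 4.07 (adjusted p = 0.0027), but by 1.94 with an adjusted p of 0.161 without MEFD3min replicate 3. Per kilobase of exon, Cidec stood at 259 ± 20.8 CPM in MEFD3plu and 643 ± 39.3 in MEFD5plu (SD, n = 3), beside 210 ± 11.9 and 246 ± 3.11 for Plin2.

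Fitm2 (ENSMUSG00000048486, chromosome 2, 163466379 to 163472629), a protein of the endoplasmic reticulum needed for droplets to form, peaked under the differentiation medium. It stood at 21.3, 19.9 and 21.2 CPM in MEFD0, 21.2, 24.8 and 21.9 in MEFD3min and 19.4, 18.2 and 18.5 in MEFD5min. It rose to 179.7, 184.8 and 185.3 CPM in MEFD3plu and stood at 57.9, 48.9 and 55.2 in MEFD5plu. Both treated groups lay above all untreated samples, and the day 3 group lay far above the day 5 group. The change was 3.02 at day 3 (SE 0.086, 8.09-fold, adjusted p = 2.48e-14) and 1.53 at day 5 (SE 0.083, 2.89-fold, adjusted p = 1.75e-10), in log2 units. The day 3 effect was larger by 1.49 (SE 0.115, adjusted p = 2.40e-08). In treated cells Fitm2 fell by 1.76 on the log2 scale from day 3 to day 5 (SE 0.081, adjusted p = 1.74e-11), 1 of 2 members to fall there beside Plin1. The antisense gene 2310001K24Rik overlaps 5.72% of the Fitm2 exon bases, and the strand setting of the counting is not given in the sources used here.

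Bscl2 (ENSMUSG00000071657, chromosome 19, 8837467 to 8848683), the seipin gene, moved little. It stood at 7.92, 9.62 and 8.99 CPM in MEFD0, 7.46, 9.04 and 6.83 in MEFD3min and 8.77, 8.37 and 9.71 in MEFD5min. It stood at 9.34, 9.71 and 7.70 CPM in MEFD3plu and at 12.1, 11.4 and 12.9 in MEFD5plu. The samples of 4 conditions overlapped, and those of MEFD5plu lay above all others. At day 3 the difference was 0.19 (SE 0.131, adjusted p = 0.224). At day 5 it was 0.44 (SE 0.129, 1.36-fold, adjusted p = 0.0092), and 0.28 with an adjusted p of 0.103 when libraries were scaled by total counts alone. MEFD5plu was also above MEFD3plu, by 0.45 (SE 0.129, adjusted p = 0.0061). Of its exon bases 6.75% overlap Gng3 on the opposite strand and 4.05% overlap AC129217.1 on the same strand. These shares are of bases, and how far the overlaps alter its counts was not tested.

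G0s2 (ENSMUSG00000009633, chromosome 1, 193272161 to 193273217), the inhibitor of the lipase Pnpla2, was almost absent without treatment. It had 6, 0 and 2 counts in MEFD0, 1, 1 and 5 in MEFD3min and 5, 6 and 11 in MEFD5min. It stood at 166.6, 151.7 and 181.3 CPM in MEFD3plu and at 129.2, 157.9 and 138.7 in MEFD5plu. Treated samples did not overlap untreated ones, while those of the 2 treated days overlapped each other. The log2 fold change was 11.10 at day 3 (SE 0.291, adjusted p = 1.22e-14) and 9.29 at day 5 (SE 0.255, adjusted p = 2.35e-14). The difference of 1.81 between them (SE 0.716, adjusted p = 0.0457) rests on 7 untreated counts at day 3 and 22 at day 5, and it lost its call with any of 9 samples left out (adjusted p 0.0522 to 0.144). The treated levels differed by -0.23 (SE 0.143, adjusted p = 0.170), and were called lower at day 5 with DESeq2 (-0.27, adjusted p = 0.0422), in a fit of the compared samples only and with no filter.

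**Figure D3:**
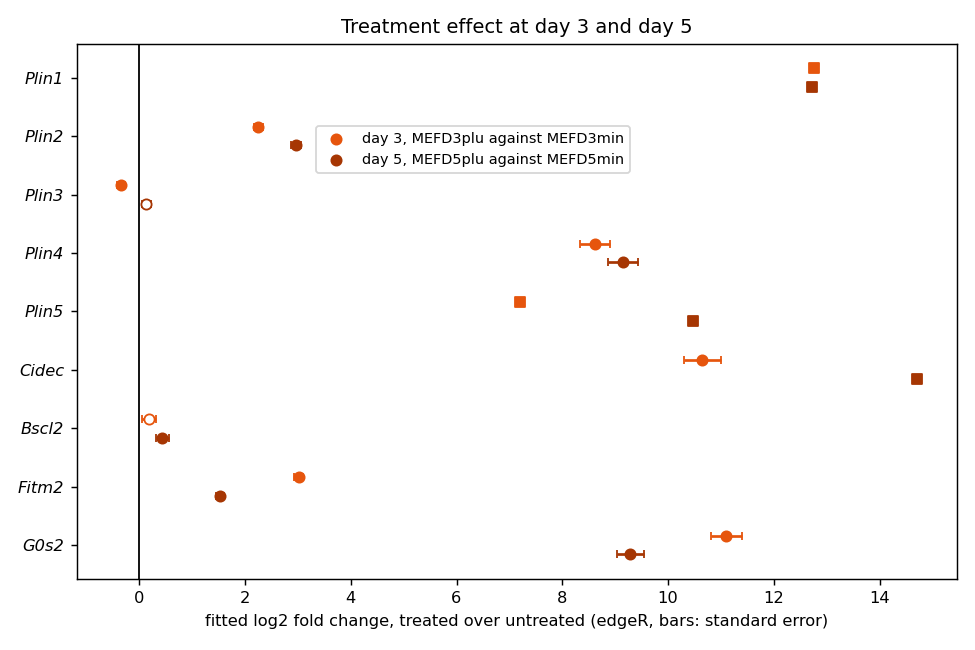
Fitted log2 fold change of treated over untreated cells for the 9 genes at day 3 and day 5, with bars for the standard error derived from the F test. These bars can be too short where untreated counts were few. Open circles were not called, and squares mark genes with at most 3 counts in every untreated sample of that day, whose fitted value depends on the prior count and is drawn without a bar. Fitm2 (3.02 and 1.53) is larger at day 3 and Plin2 (2.25 and 2.97) at day 5, and Plin3 and Bscl2 lie near 0 at both days.

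The order of the 5 conditions differed between genes. Cidec, Plin2, Plin4, Plin5 and Bscl2 were highest in MEFD5plu, Plin1, Fitm2 and G0s2 in MEFD3plu, and Plin3 in MEFD0. Of the 36 pairs of neighbours in these orders 16 were called and 20 were not. These pairs drew on all 10 comparisons between conditions, among them MEFD5plu with MEFD3min (56.7% of all genes called) and MEFD5min with MEFD3plu (62.7%). The top neighbours could not be told apart by the test for Plin4, G0s2 and Plin3 (MEFD0 and MEFD3min, adjusted p = 0.809). The lowest neighbours were not called for any of the 9 genes, and for Plin1, Plin5, Cidec and G0s2 neither pair of neighbouring untreated conditions was called. In treated cells from day 3 to day 5, Plin2, Plin5, Cidec and Bscl2 rose and Plin1 and Fitm2 fell, 6 of 9 members against 63.0% of all genes (33.8% higher and 29.2% lower). Between the treatment effects at both days 5 of 9 differed, against 48.5% of all genes (22.6% with the day 3 effect above and 25.8% below that at day 5), and 3 of 9 without MEFD3min replicate 3.

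The untreated conditions were also compared with each other. From MEFD0 to MEFD3min Plin2 rose and Plin4 fell, 2 of 9, where 60.0% of all genes were called (31.4% higher and 28.6% lower). From MEFD0 to MEFD5min Plin4 and Plin3 fell, 2 of 9 against 46.4% (24.5% higher and 21.9% lower). From MEFD3min to MEFD5min Plin2, Plin3, Fitm2 and Cidec were called lower, 4 of 9 against 42.8% (21.3% higher and 21.5% lower), but Fitm2 (-0.28, adjusted p = 0.0126) had an adjusted p of 0.0648 without MEFD3min replicate 3, and the Cidec call rested on the 25 counts of that sample. Against MEFD0, 7 members were higher and Plin3 lower in MEFD3plu (63.5% of all genes called, 33.9% higher and 29.7% lower), and 8 were higher and Plin3 lower in MEFD5plu (65.0% called, 35.2% higher and 29.8% lower).

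Other genes of the droplet were counted from 4 lists, beside the 56.1% of all genes called at day 3 and the 50.5% called at day 5. Among further coat and fusion genes, 16 of 18 listed were tested, with 7 higher and 4 lower at day 3 and 10 higher and 0 lower at day 5 (medians 0.17 and 0.43). The largest change was that of Cidea, which also joins droplets and is best known from brown fat, at 1.32 ± 0.778 CPM in MEFD3plu and 19.3 ± 2.30 in MEFD5plu (SD, n = 3), with 0.037 CPM in MEFD3min and 0 in MEFD5min (adjusted p = 7.06e-05 and 3.35e-08). The MEFD3min value of Cidea rests on 4 counts, all in replicate 3, and its change without that sample is not given here. The most negative called value was -0.73 for Hsd17b11, a droplet dehydrogenase, at day 3 (adjusted p = 5.68e-05), and the smallest called value at day 5 was 0.36 for Rab8a, a small GTPase (adjusted p = 0.0027).

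Of 17 genes for droplet formation and triglyceride synthesis 13 were tested, with 8 higher and 3 lower at each day (medians 0.77 and 0.70). Dgat2, which makes triglyceride from diglyceride, led at day 3 with 294 ± 17.4 CPM against 1.42 ± 0.469 (log2 7.69, adjusted p = 5.33e-16). Agpat2, an acyltransferase of the same route, led at day 5 with 522 ± 47.5 CPM against 10.2 ± 0.275 (log2 5.67, adjusted p = 2.41e-15). Lpin3, a phosphatidate phosphatase, fell by 1.49 at day 3 and by 0.86 at day 5 (adjusted p = 4.90e-08 and 2.25e-05).

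For droplet lipolysis 9 of 10 genes were tested, with 7 higher and 1 lower at day 3 and 9 higher at day 5 (medians 5.01 and 4.64). With genes near 0 in untreated cells set to their fold over the floor, these medians were 4.60 and 3.81. Mgll, which splits monoglycerides, was at 0 in MEFD3min and reached 9.60 ± 1.11 CPM in MEFD3plu and 23.8 ± 2.36 in MEFD5plu (adjusted p = 1.25e-10 and 4.02e-11). Lipa, the lysosomal lipase, fell by 0.54 at day 3 and rose by 0.60 at day 5 (adjusted p = 1.65e-05 and 9.61e-06). Pnpla2, named here after its values were seen because G0s2 acts on it, rose by 4.60 and 3.81 on the log2 scale, so transcripts of the lipase and of its inhibitor were both higher in treated cells.

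Of 12 regulators of perilipin genes all 12 were tested, with 9 higher and 1 lower at day 3 and 10 higher at day 5 (medians 1.91 and 0.79). Klf15, a zinc finger factor, led at both days, at 13.9 ± 1.21 CPM in MEFD3plu and 5.35 ± 0.420 in MEFD5plu against 0.092 and 0.018 CPM untreated (adjusted p = 6.78e-12 and 2.02e-10). Nr3c1, the glucocorticoid receptor, fell by 0.90 at day 3 and rose by 0.29 at day 5 (adjusted p = 2.52e-08 and 0.0044). The other called regulators at day 3 were all higher.

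**Figure D4:**
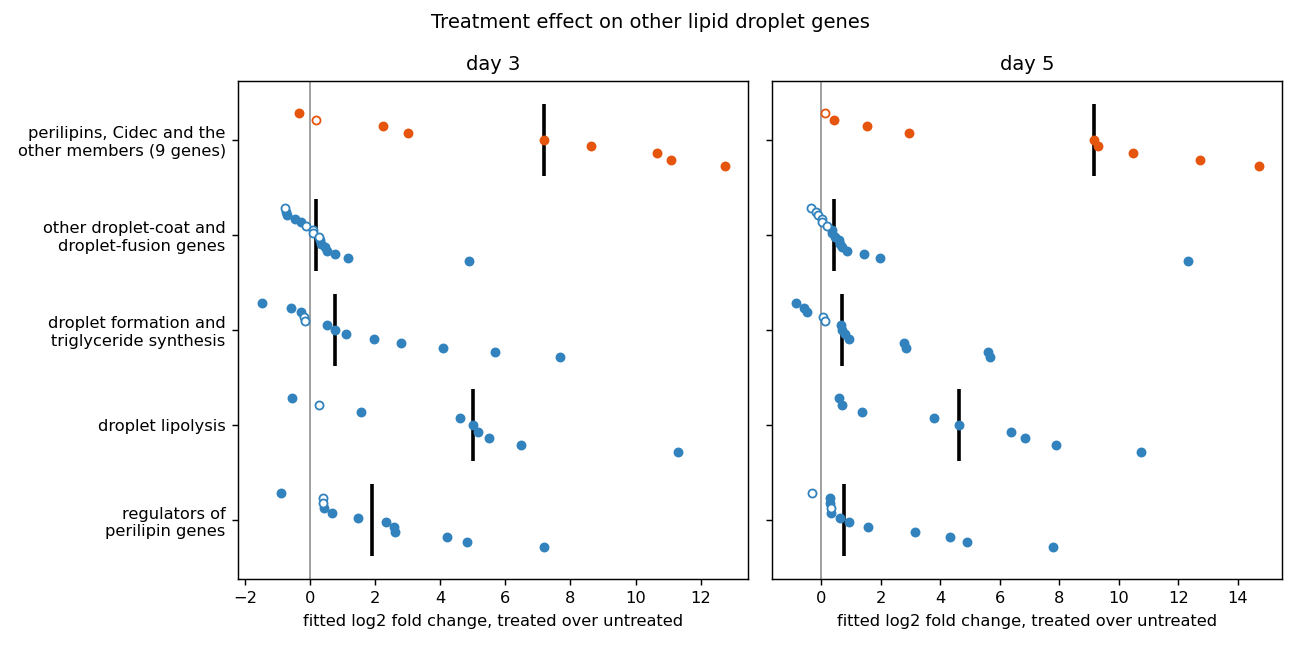
Fitted log2 fold change of treated over untreated cells at day 3 (left) and day 5 (right) for the 9 members (orange) and for the tested genes of 4 lists (blue), 1 point per gene, sorted within a list. Filled points were called, open ones were not, and the vertical black lines are medians, which reach 7.19 and 9.15 for the members and 5.01 and 4.64 for lipolysis but stay under 1 for the other coat and formation genes. With genes near 0 in untreated cells set to their fold over the floor, they are 5.14 and 5.52 for the members and 4.60 and 3.81 for lipolysis.

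Profiles over the 15 samples were compared by the root mean square difference of log2 CPM, each gene centred on its mean. The closest of all 15997 genes to Plin1 was Retn (0.697), to Plin2 Acadm (0.176), to Plin3 Clta (0.080) and to Plin4 Cbr2 (1.02). The closest to Plin5 was Agpat2 (0.405), to Cidec Adipoq (0.639), to Bscl2 Golga1 (0.138), to Fitm2 Lifr (0.180) and to G0s2 Car3 (0.924). Retn, Adipoq and Car3 are among the adipocyte markers used above, and none of the closest 3 genes to any member was another member. The next closest were Lcn2 and Sptlc3 for Plin1, 4931406C07Rik and Mpc2 for Plin2, Anxa8 and Aldh1a7 for Plin4, Lrg1 for Plin5, Gpd1 and Sptlc3 for Cidec, Tsc22d3 and Tob1 for Fitm2 and Fabp4 for G0s2. For the low varying genes they were Fam172a and Ubtf for Plin3 and Ncoa7 and Pon2 for Bscl2. At 1.02, Plin4 lay farther from its nearest gene than any other member.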

How the data were processed

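RNA-Seq of 15 MEF samples was analysed, 3 in each of 5 conditions, grouped by their labels. Per the submitters' processing notes, reads were aligned with TopHat2 2.1.0 to GRCm38 (mm10) and counted with HTSeq, and the notes also name DESeq2. The authors deposited raw counts per Ensembl gene, without normalization, and all 15 samples were used. The labels name a library kit that does not mark strand and the paper names a stranded one, and the strand setting of the counting is not given in the sources used here. Names came from GENCODE M21, which matched 46091 of 46603 identifiers.

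Genes were filtered with filterByExpr in edgeR 4.0.16 (R 4.3.3), which left 15997, and libraries were scaled by TMM. Then 1 quasi-likelihood fit over all 15 samples, without covariates, gave every comparison, with Benjamini-Hochberg adjustment. On simulated counts the day 3 comparison recovered 191 of 200 changed genes with 10 false calls over 15551 genes. For the treatment by day term these numbers were 168 and 6. The simulation changed only these 200 genes, in MEFD3plu alone, so it did not cover change in most genes or groups with almost no counts. A condition with at most 3 counts in every sample was taken as at the floor. Its exact 95% intervals cover counting error only. With 3 against 3 samples the smallest exact two-sided p is 0.1. Alternatives were DESeq2 1.42.0, only the compared samples, DESeq2's size factors, total counts alone, no filter, at least 10 counts in every sample, a replicate block and each sample left out.

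The members, lists and tests were chosen with earlier results of these data known. Text names all 9 members, the called genes with the largest and smallest change in each list and day, and the 3 closest profiles, of which some genes are not reported here. Same-numbered samples deviated together between MEFD3min and MEFD3plu (correlations 0.143 to 0.360), the 1 of 10 pairs of conditions with all correlations over 0.1. The pairing comes from the replicate numbers in the labels, which do not say what a number stands for.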

Additional observations from a re-analysis of the deposited data

Results flagged for a closer look

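The effect of treatment differed between day 3 and day 5 for 5 of the 9 genes, by the test of the interaction in edgeR's quasi-likelihood fit. Day 3 minus day 5, the log2 difference was -0.72 for Plin2 (adjusted p = 1.10e-04), -0.49 for Plin3 (adjusted p = 0.0013), -4.07 for Cidec (adjusted p = 0.0027), 1.49 for Fitm2 (adjusted p = 2.40e-08) and 1.81 for G0s2 (adjusted p = 0.0457). For Plin2, Plin3 and Fitm2 all samples on both sides held at least 467 counts. For Cidec and G0s2 the untreated side held 0 to 25 counts per sample, and both calls were lost without MEFD3min replicate 3 (-1.94, adjusted p = 0.161, and 1.40, adjusted p = 0.137). Groups of 3 samples were not searched for single outlying values.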

How the results depend on the processing

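The filter of at least 10 counts in every sample leaves only 4 members to test, and beside it the called members numbered 8 at day 3 under each alternative and 7 or 8 at day 5. Under that filter 3 members were called at day 3, 3 at day 5, 3 for the interaction, 3 from MEFD3plu to MEFD5plu, 1 from MEFD0 to MEFD3min and 1 from MEFD0 to MEFD5min, 7 neighbouring pairs were called, and 4 and 5 lipolysis genes at day 3 and day 5. In a fit of the compared samples only, 2 members were called from MEFD3min to MEFD5min, and without MEFD3min replicate 3 there were 2 there and 3 for the interaction.

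With each sample left out, called members stayed at 8 to 8 at day 3 and at day 5, and numbered 3 to 5 for the interaction, 4 to 6 from MEFD3plu to MEFD5plu, 2 to 3 from MEFD0 to MEFD3min and to MEFD5min, and 2 to 5 from MEFD3min to MEFD5min, with 14 to 17 neighbouring pairs. At day 3 and day 5 the lists gave 11 to 11 and 9 to 11 coat genes, 10 to 12 and 11 to 11 formation genes, 8 to 9 and 9 to 9 lipolysis genes, and 10 to 11 and 9 to 11 regulators. The replicate block gave 8 called members at day 3, 8 at day 5 and 5 for the interaction, and this pairing changed no call of a member.

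Values that turned sign were all uncalled, and the cause was not tested. Plin3 turned at day 5 with total counts alone (-0.0253), from MEFD3plu to MEFD5plu with DESeq2 (-0.0147), the compared samples (-0.0126), DESeq2's size factors (-0.0154), total counts (-0.0564) and some samples left out (-0.0234 to 0.0465), and from MEFD0 to MEFD3min with the 10 count filter (0.0024) and some samples left out (-0.095 to 0.0111). Bscl2 turned from MEFD0 to MEFD5min with DESeq2 (-0.0009), its size factors (-0.0001), total counts (-0.0045), no filter (-0.0104) and some samples left out (-0.0733 to 0.0814). The interaction turned for Plin1 with DESeq2 (-0.0187) and some samples left out (-1.83 to 2.71) and for Plin4 with a sample left out (-1.17 to 0.18). Total counts alone moved the median of all genes by -0.16 at day 5, 0.18 for the interaction and -0.12 from MEFD0 to MEFD3min. Perilipin shares moved with the length used, Plin2 in MEFD0 to 76.7% with the longest transcript and 61.1% with none, and those of Plin3, Plin4 and Plin5 by over 1.5 times in at least 1 condition. Depth limits what can be said of Plin1, Plin5, Cidec and G0s2 in untreated cells, where most samples hold under 10 counts.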
